A study of Rattus norvegicus with 15 samples.

Results

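Pheochromocytoma (PCC) is a tumour of the chromaffin cells of the adrenal medulla, the cells that make and store catecholamines. The rats that develop it here are MENX rats, which carry 2 copies of a spontaneous frameshift mutation in *Cdkn1b*, the gene of the cell cycle inhibitor p27, in every cell. This account compares 5 PCC libraries (MENX rats, 7-9.5 months) with 5 libraries of hyperplastic adrenal medulla (HYP, MENX rats, 4-5 months). Both groups share the mutation and the strain (Sprague-Dawely in the labels), so that tumour stage and age cannot be told apart. Another 5 libraries, from the normal adrenal medulla of wildtype rats (WT, 7-9.5 months), are given beside some values. The tissue was snap-frozen and dissected by hand with the cortex removed, and polyadenylated RNA was sequenced. The deposited table for this pair of groups listed 3360 of the 8621 genes that appear in any table of the series. It held only genes that already had an adjusted *p* under 0.05 in the study's own test of the same libraries, out of 17454 genes tested there. Libraries are named by group and number (PCC1 to PCC5), and lists of 5 values follow that order.

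Chromaffin cells derive from the neural crest and depend on a network of transcription factors that includes *Hand2* and *Gata3*. Tumours of this lineage are commonly sorted by expression into a pseudohypoxic type, in which targets of the hypoxia-inducible factors are on without a lack of oxygen, a kinase signalling type and a Wnt type. The hypoxia-inducible factor HIF-2α is encoded by *Epas1*, and loss of enzymes of the tricarboxylic acid (TCA) cycle is one known way to the pseudohypoxic state.

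Of the 3360 listed genes, 3152 passed the filter on low counts and were tested anew. The call used an adjusted *p* under 0.05 from a quasi-likelihood test of the counts, corrected for the 17454 genes of the study's test. By this rule 1456 genes (46.2%) differed, 894 of them (28.4%) higher and 562 (17.8%) lower in PCC. The median log2 fold change of all tested genes was 0.54. The groups did not overlap for 1709 genes (54.2%), among which PCC was the higher group for 988 and the lower for 721. Because the table was preselected on the same libraries, these percentages describe the listed genes and not the transcriptome, and each gene group below is read against them. Medians of the gene groups carry the same preselection. Over genes of any of the 3 tables with values in all 10 libraries, most of these medians lay nearer to 0. Those of the ion channel, Wnt, glycolysis and respiratory chain groups were 0.27, 0.25, 0.36 and -0.19. The matrix (0.34), TGF-beta (-0.33) and immediate early (-0.39) groups moved away from 0. Among the called genes, 643 rose and 429 fell by at least 2-fold, and 77 rose and 20 fell by at least 8-fold.

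**Figure D1:**
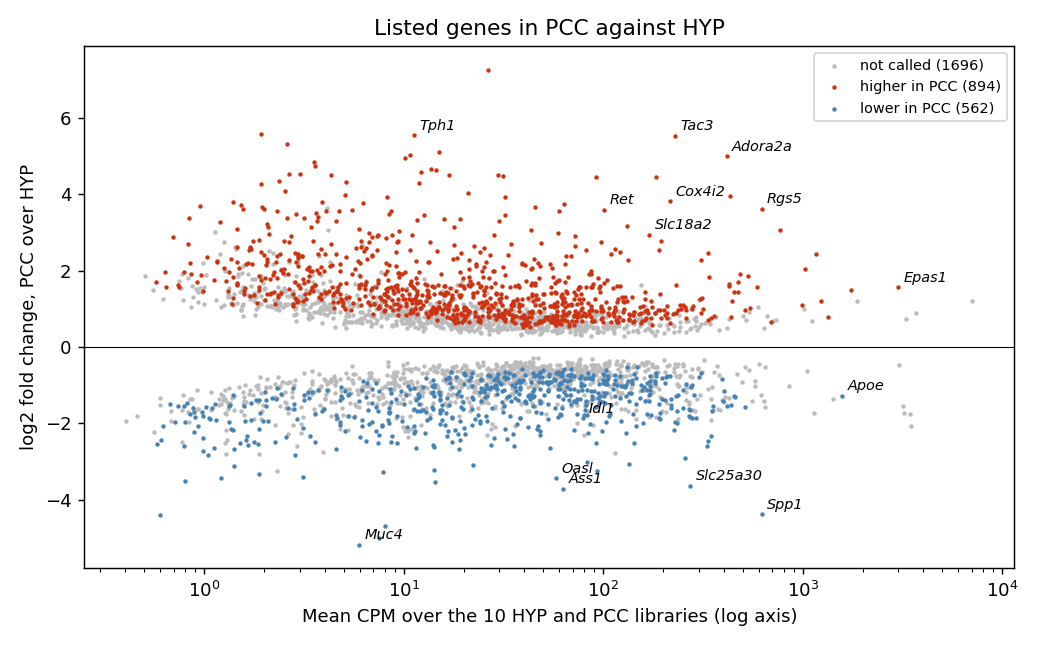
Log2 fold change of PCC over HYP (vertical axis) against the mean level of each gene over the 10 libraries in CPM (reads scaled to the size of the library, log axis), for the 3152 tested genes. Red points are the 894 genes called higher in PCC, blue points the 562 called lower and grey points the 1696 not called. *Tac3* and *Adora2a* combine a large rise with a high level, as *Spp1* and *Slc25a30* do for the fall.

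The libraries held 16315018 to 18839462 reads on genes in HYP and 17340695 to 23831269 in PCC (exact two-sided permutation test, *p* = 0.0397), so that the PCC group was somewhat deeper. On a principal component analysis of the listed genes, which were chosen for a difference between these groups, the first component held 77.5% of the variance and separated them. Library PCC4 lay farthest out (73.7) and library PCC5 lay nearest to HYP (7.32, with HYP from -48.2 to -28.5). Transcripts of the adrenal cortex, which surrounds the medulla, also differed. All 8 cortex markers in the table were fitted below 0 (median log2 fold change -1.51), and 1 of them, *Apoe*, was called. The summed level of the 8 markers was 8994 to 21900 CPM in HYP and 1347 to 7649 CPM in PCC, lowest in library PCC4. As these are bulk samples, fewer cells of a type and less RNA per cell cannot be told apart. Added to the model as a covariate after the data were seen, the cortex level of each library (mean log2 CPM of 11 markers, 9.40 to 10.5 in HYP and 6.31 to 9.55 in PCC) left 72 genes called higher and 11 called lower. Without library PCC4 646 genes were called higher and 455 lower. Counts under both are given with the gene groups. As the cortex level itself differed between the groups, the covariate fit cannot separate it from the step from HYP to PCC. A call lost in that fit can therefore not be assigned to the cortex, whose part was not tested further.

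The mutated gene itself was expressed in both groups. *Cdkn1b* stood at 106, 129, 104, 87.0 and 105 CPM in the HYP libraries and at 178, 159, 138, 177 and 114 CPM in the PCC libraries, with 63.8 ± 14.8 CPM (SD, n = 5) in WT. The ranges of HYP and PCC overlapped, and the log2 fold change of 0.53 ± 0.18 (SE) missed the threshold (adjusted *p* = 0.0839). A frameshift leaves the transcript countable, so this level does not check the genotype.

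The largest rises were those of a neuropeptide, receptors, enzymes and structural genes with low levels in HYP. *Tac3* (chr7:71023976-71030582 in Rn06), which encodes neurokinin B, was measured at 17.0, 1.95, 13.3, 9.98 and 6.14 CPM in HYP and at 549, 187, 482, 856 and 167 CPM in PCC. Every PCC library exceeded every HYP library by a wide margin, and the log2 fold change was 5.54 ± 0.66 (adjusted *p* = 0.00195). *Adora2a* (chr20:14265252-14282873), the adenosine A2A receptor that couples to adenylyl cyclase, went from 38.9, 14.9, 22.2, 26.7 and 23.0 CPM to 499.9, 469.9, 759, 1993 and 292 CPM. This rise of 5.00 ± 0.55 on the log2 scale (adjusted *p* = 0.00158) was highest in library PCC4, and without that library it was 4.33. *Tph1*, the enzyme that starts serotonin synthesis, had 0.603, 0.401, 0.198, 0.184 and 0.892 CPM in HYP and 5.74, 5.93, 9.82, 87.2 and 0.908 CPM in PCC. Its groups did not overlap, but library PCC5 was close to the highest HYP library, and the log2 fold change of 5.55 ± 1.15 fell to 3.58 without library PCC4.

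The remaining genes with the largest rise were *Slc12a1*, *Krt18*, *Wnt10a*, *Dlec1*, *Sphkap*, *Prokr1*, *Stc2*, *Myo1a* and *Myh3*, with log2 fold changes from 4.62 to 5.11 for the 7 whose mean HYP level lay above the floor of 3 reads per library (0.182 CPM), which *Slc12a1* and *Krt18* did not reach. *Slc12a1*, a sodium, potassium and chloride cotransporter of the kidney, had at most 3 reads in each HYP library and 2.40, 2.86, 1.38, 11.3 and 0.817 CPM in PCC. Set against a floor of 3 reads per HYP library, it was at least 20.6-fold higher in PCC. It is 1 of 3 kidney markers in the table, of which the other tested one, *Lrp2*, also rose (log2 fold change 1.59). *Krt18*, a keratin of simple epithelia, also had a HYP mean under this floor and was at 0, 0, 0.132, 0.428 and 0.0525 CPM in HYP and 4.80, 2.46, 2.32, 15.3 and 0.545 CPM in PCC. *Prokr1*, a prokineticin receptor, was at 0.268, 0.115, 0.198, 0.428 and 0.158 CPM and 5.13, 2.97, 14.6, 9.44 and 2.00 CPM. For all 12 of these genes the lowest PCC library lay above the highest HYP library, which the choice required. With the cortex level as a covariate *Tac3* (5.13), *Dlec1* (3.13), *Adora2a* (3.80), *Sphkap* (4.41) and *Prokr1* (4.72) were still called. The other 7 were not, with log2 fold changes from 1.76 for *Stc2* to 4.43 for *Wnt10a* (adjusted *p* = 0.0721). *LOC680227*, a gene without a full symbol that was noted after its values were seen, had a still larger fitted rise of 7.26 (adjusted *p* = 0.0224).

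The largest falls were those of secreted and metabolic genes. *Muc4* (chr11:71243334-71284939), a membrane-bound mucin, was at 5.69, 9.34, 19.1, 14.1 and 9.55 CPM in HYP and at 0, 0.614, 0.543, 0.101 and 0.318 CPM in PCC (log2 fold change -5.18 ± 0.66, adjusted *p* = 0.00220). *Spp1*, which encodes the matrix protein osteopontin, was at 163, 931, 1563, 1959 and 1302 CPM in HYP and 22.2, 10.3, 42.7, 56.7 and 152 CPM in PCC (-4.38 ± 0.79, adjusted *p* = 0.00945). The highest PCC library came close to library HYP1 for *Spp1*, while the other HYP libraries lay far above. *Ass1*, the enzyme of the urea cycle that joins citrulline and aspartate, was at 39.7, 73.8, 235, 136 and 100.5 CPM and 4.52, 12.4, 16.2, 3.01 and 8.40 CPM (-3.71 ± 0.56, adjusted *p* = 0.00411). *Slc25a30*, a mitochondrial carrier, fell from 505 ± 176 CPM to 40.7 ± 32.5 CPM (SD, n = 5 each; -3.63 ± 0.48, adjusted *p* = 0.00230). *Fmo1*, *Oasl*, *Col6a5*, *Olah*, *Hamp*, *Ndnf*, *Fgf7* and *Ifit3* completed the 12 largest falls, with log2 fold changes from -3.53 to -3.09. With the cortex level as a covariate the falls of *Slc25a30* (-2.75), *Fmo1* (-2.62), *Oasl* (-2.69) and *Ifit3* (-2.92) were still called. Those of the other 8 genes were not, although *Muc4* (-4.78, adjusted *p* = 0.0530) and *Spp1* (-3.84, adjusted *p* = 0.174) kept most of their fall and *Hamp* (-1.63) kept the least.

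**Figure D2:**
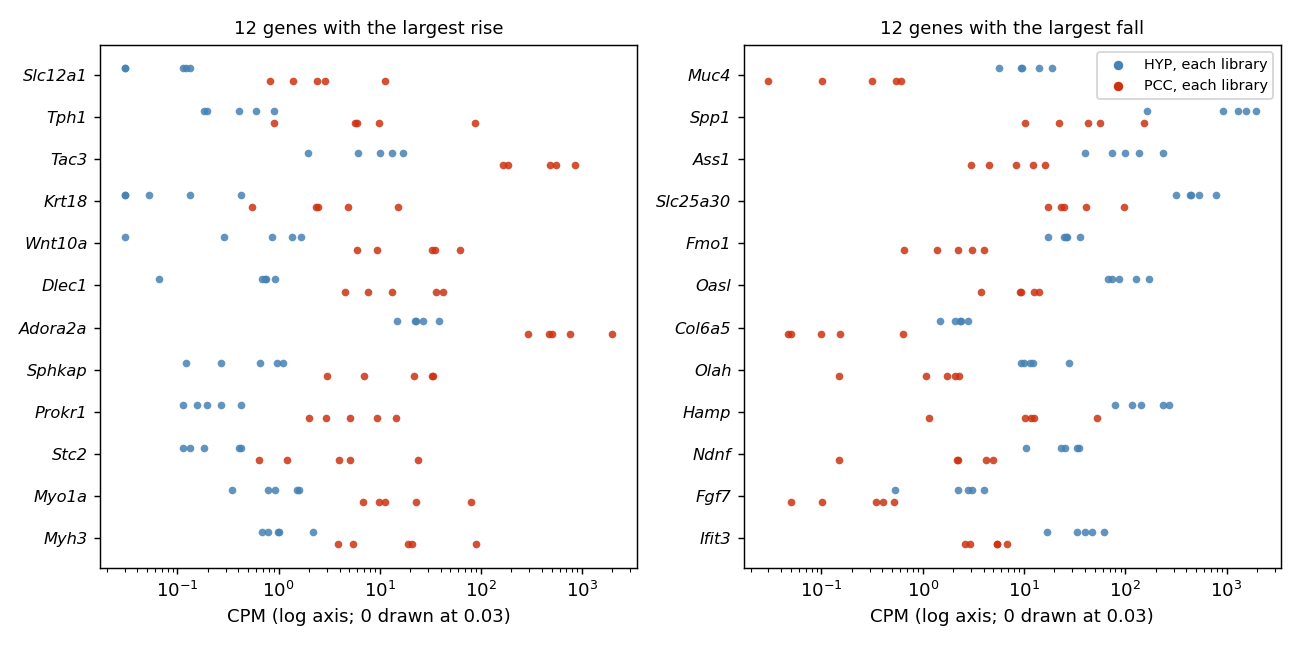
Level of the 12 genes with the largest rise (left) and the 12 with the largest fall (right) in each library, in CPM on a log axis with 0 drawn at 0.03. Each point is 1 library, blue for HYP and red for PCC, and the groups of 5 do not overlap for any of the 24 genes because the choice required it.

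Among called genes with a full symbol, the largest gains in FPKM, the authors' level per gene length, were those of *Rgs5*, *Nnat*, *Epas1*, *Cd24*, *Ndufa4l2* and *Tac3*. The gain of *Th*, the first enzyme of catecholamine synthesis, was larger (3354 FPKM, against 1685 FPKM for *Rgs5*) but missed the threshold (adjusted *p* = 0.0546). *Epas1* reached 1376 ± 541 FPKM in PCC from 434 ± 121 in HYP (SD, n = 5), *Tac3* 639.6 ± 413 from 12.5 ± 6.97, and *Rgs5* 1823 ± 1180 from 138 ± 35.6. *Cd24*, a small glycosylated surface protein, had 401 ± 92.9 CPM in HYP and 1652 ± 790.1 CPM in PCC with no overlap. *Nnat*, an imprinted gene of neuroendocrine cells, was at 1567, 700.2, 373, 977 and 958 CPM in HYP and 1533, 2179, 2249, 4418 and 2407 CPM in PCC, and rose by 1.48 ± 0.39 on the log2 scale although library HYP1 fell inside the PCC range. The largest losses in FPKM among called genes were those of *Apoe*, *Spp1*, *Hamp*, *Phyh*, *Bst2* and *Fads2*. *Star*, a cortex marker that was not called (adjusted *p* = 0.146), had a larger difference in FPKM (-2513, against -972 for *Apoe*). *Apoe*, the apolipoprotein that is also abundant in the steroid-producing cortex, went from 1793, 1694, 3312, 2426 and 1940 CPM in HYP to 1148, 831, 934, 811 and 864 CPM in PCC.

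Genes of the mitotic apparatus formed the largest group that moved one way. Of 47 tested members 37 (78.7%) rose and none fell, against 28.4% of all tested genes, and the median log2 fold change was 1.38. The leading members were *Nuf2*, a kinetochore protein (11.2, 12.2, 8.51, 6.37 and 7.35 CPM in HYP, 41.2, 49.3, 35.9, 66.0 and 20.3 CPM in PCC), the microtubule depolymerase *Kif2c* (7.70, 12.6, 8.44, 7.10 and 6.20 CPM and 28.0, 47.7, 36.0, 55.3 and 21.3 CPM) and the centrosome kinase *Nek2* (0.938, 1.49, 0.989, 1.28 and 1.63 CPM and 1.70, 8.39, 5.28, 8.64 and 3.22 CPM). For *Nuf2* and *Kif2c* every PCC library lay well above the highest HYP library, whereas library PCC1 was barely above it for *Nek2*. *Cit*, a kinase of late cell division, was the only tested member fitted below 0 (log2 fold change -1.22, not called). The count of members called was 21 without library PCC4 and 2 (*Kif2c* and *Nuf2*) with the cortex level as a covariate, where the median was 0.57. The level of the group was highest in libraries PCC2 and PCC4, which had the lowest cortex levels.

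The promoters of these genes carry known cell cycle elements, and a few are shown because they let the group be read as sequence. RefSeq (GRCr8) gave a single promoter of 300 bases, 250 before and 50 after the start, for 28 of the 37 genes that rose. The cell cycle genes homology region (CHR, TTTGAA on either strand), an element bound by the complexes that time mitotic transcription, was found in 23 of these 28 (82.1%) and in 18.3% of all 33469 promoters. The CCAAT box (CCAAT on either strand), bound by NF-Y, was found in 20 of the 28 (71.4%) and in 37.5% of all promoters. These are matches of letters and not measured binding. The 250 bases before the start are given 5′ to 3′ for the 3 genes with the largest rise that hold both elements in them, with the matches in capitals. They belong to *Cenpa* (the centromeric histone; chr6:31431553-31431802, minus strand), *Cdc20* (activator of the anaphase-promoting complex; chr5:137255800-137256049, minus strand) and *Prc1* (a spindle midzone protein; chr1:143659231-143659480, plus strand).
Cenpa: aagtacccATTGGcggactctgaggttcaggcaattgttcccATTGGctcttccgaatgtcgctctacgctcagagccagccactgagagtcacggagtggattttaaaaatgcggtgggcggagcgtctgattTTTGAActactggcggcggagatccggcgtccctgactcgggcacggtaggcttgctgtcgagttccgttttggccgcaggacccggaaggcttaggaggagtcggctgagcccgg
Cdc20: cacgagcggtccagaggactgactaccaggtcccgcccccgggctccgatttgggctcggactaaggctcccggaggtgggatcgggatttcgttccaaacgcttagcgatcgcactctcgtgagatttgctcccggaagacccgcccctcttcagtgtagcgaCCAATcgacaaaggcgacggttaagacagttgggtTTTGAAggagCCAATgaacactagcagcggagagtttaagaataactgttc
Prc1: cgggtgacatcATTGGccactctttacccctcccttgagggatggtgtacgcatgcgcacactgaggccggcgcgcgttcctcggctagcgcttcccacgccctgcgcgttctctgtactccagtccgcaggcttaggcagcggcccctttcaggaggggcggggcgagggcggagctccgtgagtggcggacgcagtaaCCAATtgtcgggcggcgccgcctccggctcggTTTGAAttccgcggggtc

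These 3 genes rose by 1.83, 1.80 and 1.62 on the log2 scale. *Cenpa* was at 0.670, 0.802, 0.396, 0.796 and 0.367 CPM in HYP and 0.847, 3.43, 2.76, 2.71 and 1.14 CPM in PCC, and *Cdc20* at 5.56, 4.41, 4.22, 6.18 and 5.20 CPM and 6.97, 23.2, 16.2, 29.6 and 12.9 CPM. In both cases libraries PCC1 and PCC5 were the lowest of their group.

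The share of DNA replication and repair genes that rose was close to that of all tested genes. Of 25 tested members 9 (36.0%, against 28.4%) rose and none fell, all 25 were fitted above 0, and the median was 0.91. *Uhrf1*, which maintains DNA methylation through replication, rose by 1.48 ± 0.38 on the log2 scale, and the helicase subunit *Mcm5* by 1.43 ± 0.35. Of 8 tested regulators of entry into S phase, 3 rose (37.5%, against 28.4%) and none fell (median 1.02). *E2f1*, a transcription factor of S phase genes, was at 4.82, 4.58, 3.96, 4.65 and 5.20 CPM in HYP and 6.64, 16.6, 17.2, 55.9 and 12.4 CPM in PCC, with library PCC4 far above the others. *Cdkn2a*, whose products restrain the cell cycle, rose by 1.55 ± 0.36, and *Tfdp1*, a partner of the E2F factors, by 0.68 ± 0.17. Without library PCC4, 4 replication genes and 3 S phase regulators were called, and none of either with the cortex covariate.

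Many of the listed markers of pseudohypoxia rose in PCC. Of 17 tested members 11 (64.7%, against 28.4% of all tested genes) were called higher and none lower, with a median of 1.56. Another 2 were fitted below 0 and not called. Over genes of all 3 tables of the series, 12 of 29 members were called higher, with a median of 0.71. *Epas1* was at 1276, 2054, 1250, 1419 and 1582 CPM in HYP and 3940, 3478, 5008, 7065 and 2895 CPM in PCC, a log2 fold change of 1.56 ± 0.30 (adjusted *p* = 0.0118). *Pgf*, a ligand of the VEGF receptor family, was at 3.82, 4.07, 5.34, 3.67 and 2.94 CPM and 38.1, 31.2, 47.0, 162 and 24.1 CPM, and *Cox4i2*, the hypoxia-type isoform of a cytochrome c oxidase subunit, at 43.7, 26.6, 22.8, 27.3 and 23.1 CPM and 454, 338, 260.2, 789.5 and 173 CPM. *Rgs5*, a regulator of G protein signalling that also marks pericytes, was at 57.5, 104, 112, 97.6 and 94.8 CPM and 1122, 614, 1193, 2314 and 501 CPM. For these 4 genes all PCC libraries lay above all HYP libraries, with library PCC4 highest and PCC5 lowest of their group. *Ndufa4l2*, which replaces a subunit of the respiratory chain in low oxygen, rose by 1.84 ± 0.34. *Vegfa*, the main vascular growth factor, was at 821, 654, 692, 632 and 605 CPM in HYP and 812, 941, 1029, 3073 and 917 CPM in PCC and missed the threshold (adjusted *p* = 0.118). Library PCC4 stood far above the other 4, which lay close to HYP.

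Of the pseudohypoxia markers 11 were called without library PCC4 and 5 with the cortex covariate, among them *Pgf* (2.59), *Cox4i2* (2.94) and *Rgs5* (2.90). *Epas1* was then at 1.04 (adjusted *p* = 0.145). Markers of pericytes and smooth muscle numbered 3 in the table, of which *Rgs5* alone was called, and their summed level, which *Rgs5* dominates, went from 122-169 CPM to 572-2408 CPM. Of 3 endothelial markers *Vwf* rose (0.99) and the other two were fitted below 0, and their summed level was 115 to 169.8 CPM in HYP and 70.5 to 140.3 CPM in PCC. The part of these cell types in the result was not tested.

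**Figure D3:**
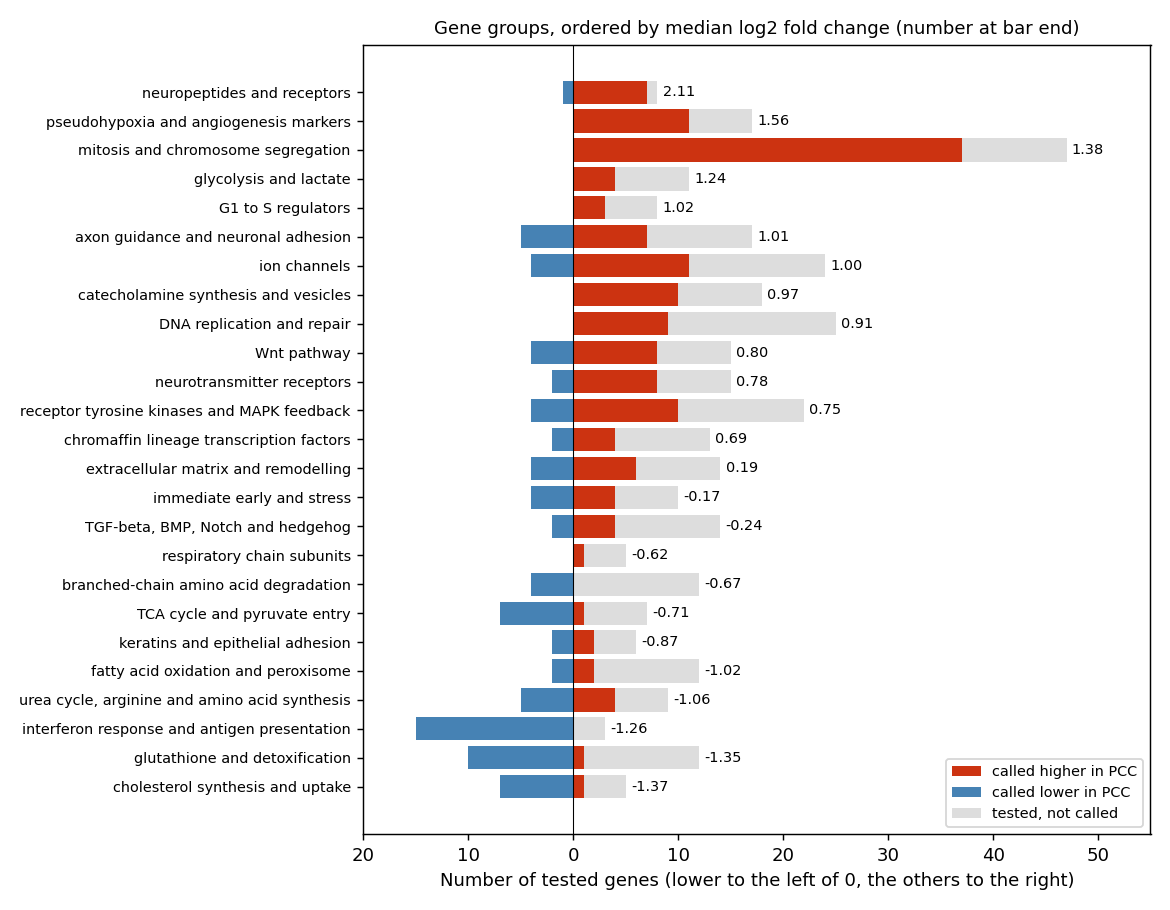
Number of tested genes in 25 gene groups that were called higher in PCC (red), called lower (blue, drawn to the left of 0) or not called (grey), with the median log2 fold change at the end of each bar. The mitosis group is the largest with calls in 1 direction (37 higher, 0 lower), and interferon genes show the most falls (15).

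Genes of chromaffin cells were abundant in both groups. Tyrosine hydroxylase (*Th*) was at 4275 ± 1088 CPM in HYP and 9811 ± 4091 CPM in PCC (SD, n = 5; adjusted *p* = 0.0546). Of 18 tested genes of catecholamine synthesis and secretory vesicles 10 rose (55.6%, against 28.4% of all tested genes) and none fell, with a median of 0.97. *Slc18a2*, the vesicular monoamine transporter VMAT2, was at 49.7, 42.4, 27.4, 36.3 and 39.9 CPM in HYP and 289.8, 189.9, 353, 526 and 143 CPM in PCC (2.94 ± 0.34, adjusted *p* = 0.00182). *Slc18a1*, the related transporter VMAT1 of endocrine cells, rose less, from 631 ± 86.0 to 1349 ± 564 CPM (1.09 ± 0.29, adjusted *p* = 0.0408). *Syt1*, a calcium sensor of vesicle fusion, was at 197, 275, 192, 177 and 213 CPM and 712, 694, 602, 839.7 and 346 CPM, and *Cadps*, a priming factor of dense-core vesicles, rose by 1.58 ± 0.29. Without library PCC4, 8 of these genes were called, and *Slc18a2* alone with the cortex covariate (2.35). Of 9 listed chromaffin cell markers 3 were called higher, a share (33.3%) close to that of all tested genes (28.4%). All 9 were fitted above 0, and their summed level was 7135 to 10910 CPM in HYP and 13640 to 28880 CPM in PCC.

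Among 15 tested transcription factors of the lineage 4 rose and 2 fell (median 0.69), and the share called (40%) was below that of all tested genes (46.2%). *Dlx1* and *Dlx2*, homeobox factors of neural development that lie side by side on chromosome 3, were at 12.1, 9.57, 8.24, 9.12 and 7.19 CPM and 9.98, 6.99, 3.89, 6.61 and 8.66 CPM in HYP and at 92.2, 28.9, 95.5, 125 and 43.8 CPM and 43.6, 20.2, 59.4, 65.8 and 27.8 CPM in PCC. In both genes library PCC2 was the lowest and PCC4 the highest. *Lmo4*, a LIM-domain cofactor (-1.76 ± 0.49), and *Meis1*, a homeobox factor (-0.98 ± 0.23), fell. The WT means were 2.02 CPM for *Dlx1*, 1.32 CPM for *Dlx2* and 259 CPM for *Lmo4*. Without library PCC4, 3 rose and 4 fell, and *Dlx1* and *Dlx2* alone were called with the cortex covariate (2.78 and 2.31).

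Of 9 tested neuropeptides and their receptors 7 rose and 1 fell (median 2.11, 88.9% called against 46.2% of all tested genes). Over genes of all 3 tables of the series, 18 members had a median of 0.11. Beside *Tac3*, the calcium-regulated hormone *Stc2* was at 0.402, 0.115, 0.132, 0.184 and 0.420 CPM in HYP and 1.22, 5.11, 3.95, 23.8 and 0.635 CPM in PCC. *Pomc*, the precursor of corticotropin and endorphin, was at 3.08, 1.32, 1.52, 2.45 and 1.84 CPM and 7.44, 48.5, 3.90, 15.2 and 2.36 CPM with overlapping groups, and its log2 fold change was 2.92 ± 0.74. Library PCC2 was by far the highest. *Tacr3*, the receptor of neurokinin B, moved opposite to its ligand, from 1.94, 10.7, 7.05, 7.28 and 8.35 CPM to 2.73, 3.22, 1.48, 0.703 and 2.09 CPM (-1.78 ± 0.48). Library HYP1 was within the PCC range for *Tacr3*. Without library PCC4, 6 members rose and none fell, and *Tac3* alone was called with the cortex covariate (5.13).

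Receptors and channels of excitable cells moved in both directions. Of 17 tested neurotransmitter receptors 8 rose and 2 fell (median 0.78, 58.8% called against 46.2% of all tested genes). The rises were led by *Adora2a*, the serotonin-gated channel *Htr3a* (2.78 ± 0.52) and the β1-adrenergic receptor *Adrb1* (2.78 ± 0.67). *Adrb1* was at 1.55, 1.58, 3.55, 13.2 and 2.09 CPM in PCC, and without library PCC4 its log2 fold change was 1.78. In that fit 6 receptors were higher and 1 was lower, and with the cortex covariate *Adora2a* alone was called. *Htr1b*, a serotonin receptor (-1.34 ± 0.35), and the cannabinoid receptor *Cnr1* (-1.02 ± 0.28) fell. Of 28 tested ion channel genes 11 rose and 4 fell (median 1.00, 53.6% called against 46.2% of all tested genes). The acid-sensing channel *Asic1* was at 9.21 ± 2.55 CPM in HYP (SD, n = 5) and 65.1, 52.7, 59.6, 84.4 and 34.7 CPM in PCC, with a wide gap between the groups. *Cacna2d2*, an auxiliary calcium channel subunit, was at 19.5, 18.2, 18.7, 20.3 and 22.1 CPM and 139.6, 38.1, 175, 221 and 48.4 CPM, and the inward rectifier *Kcnj3* rose from at most 0.593 CPM (4.34 ± 0.98; 3.21 without library PCC4). The purinergic channel *P2rx5* (-1.94 ± 0.43), *Kcnc2* (-1.60 ± 0.38) and *Trpv2* (-1.34 ± 0.37) fell. Among the channels 10 rose and 3 fell without library PCC4, and *Asic1* alone was called with the cortex covariate.

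Guidance and adhesion genes of neurons gave 7 rises and 5 falls among 22 tested members (median 1.01, 54.5% called against 46.2% of all tested genes). The ephrin receptor *Epha8* was at 3.55, 2.64, 2.57, 2.45 and 2.36 CPM in HYP and 17.6, 66.0, 65.8, 119 and 33.3 CPM in PCC (4.47 ± 0.47, adjusted *p* = 0.00135), and the axonal adhesion molecule *Nfasc* at 60.7, 51.7, 35.9, 68.5 and 61.2 CPM and 297, 290.1, 328, 518 and 186 CPM. A second ephrin receptor, *Ephb3*, rose by 1.76 ± 0.38. The netrin receptor *Unc5d* (-2.50 ± 0.62), the adhesion molecule *Dscaml1* (-2.34 ± 0.44) and the guidance cue *Slit1* (-1.74 ± 0.48) fell. *Dscaml1* and *Slit1* were at 0.0232 and 6.63 CPM in WT, against 2.74 and 23.3 CPM in HYP. Of the guidance and adhesion genes 7 rose and 3 fell without library PCC4. With the cortex covariate 4 were called, all higher, namely *Epha8*, *Nfasc* and, outside the rule for naming, *Plxnb1* and *Sema3c*. Of 5 ganglion neuron markers in the table all were fitted above 0 and 2 (40%, against 28.4% of all tested genes) were called higher (*Snhg11*, 2.43, and *Gap43*, 1.12). Their summed level went from 429.5-753 to 877-1565 CPM. Of 4 markers of sustentacular and Schwann cells 1 rose, the neurotrophin receptor *Ngfr* (1.08), and 2 fell, among them the calcium-binding protein *S100b* (-2.14). The part of these cells was not tested.

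Receptor tyrosine kinase signalling was led by the pair of *Ret* and its ligand *Gdnf*. *Ret*, a receptor with a known role in medullary tumours, was at 24.2, 15.1, 10.7, 12.8 and 14.0 CPM in HYP and 219.5, 142, 154, 322 and 93.6 CPM in PCC (3.60 ± 0.36, adjusted *p* = 0.00135), and *Gdnf* at 0.402, 0.516, 0.396, 0.490 and 0.525 CPM and 3.67, 2.35, 8.39, 8.84 and 3.22 CPM (3.48 ± 0.44, adjusted *p* = 0.00220). *Etv4*, a transcription factor induced by this kind of signalling, was at 0.536, 0.688, 0.264, 0.428 and 0.315 CPM and 5.55, 1.23, 2.17, 1.91 and 4.49 CPM, and here library PCC2 was the lowest. All 3 had groups without overlap and were called with the cortex covariate (2.98, 3.10 and 3.31). Of the 26 tested members 10 rose and 4 fell (median 0.75, 53.8% called against 46.2% of all tested genes). These counts were 11 and 5 without library PCC4 and 4 and 0 with the cortex covariate, where *Ltk*, a receptor named after its values were seen, was the other call. The growth factors *Fgf7* (-3.11 ± 0.61) and *Pdgfd* (-1.93 ± 0.43) and the receptor *Fgfr2* (-1.95 ± 0.54) fell.

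The Wnt pathway had 8 rises and 4 falls among 19 tested members (median 0.80, 63.2% called against 46.2% of all tested genes). The ligand *Wnt10a* was at 1.68, 0.287, 0, 0.857 and 1.36 CPM in HYP and 33.0, 5.93, 35.0, 62.6 and 9.49 CPM in PCC (5.11 ± 0.85, adjusted *p* = 0.00642). The secreted antagonists *Notum* (0.804, 2.58, 0.462, 0.490 and 0.472 CPM and 15.5, 2.20, 13.7, 77.5 and 7.54 CPM) and *Dkk2* (2.88, 1.38, 1.52, 1.84 and 0.735 CPM and 12.8, 5.63, 4.64, 17.6 and 2.27 CPM) rose as well, each with 1 PCC library inside the HYP range. The receptors *Fzd8* (-1.86 ± 0.39) and *Lgr4* (-1.37 ± 0.30) and the antagonist *Sfrp1* (-1.64 ± 0.43) fell. Without library PCC4 the Wnt counts were 7 and 5. With the cortex covariate the only call was a rise of *Axin2*, a feedback inhibitor of the pathway named after its values were seen, and *Wnt10a* was at 4.43. In TGF-beta, BMP, Notch and hedgehog signalling 4 of 16 tested genes rose and 2 fell (median -0.24), and the share called (37.5%) was below that of all tested genes (46.2%). Risers were the hedgehog factor *Gli2* (2.24 ± 0.61), the Notch modifier *Mfng* (1.43 ± 0.38) and the ligand *Bmp7* (1.08 ± 0.19), while the coreceptor *Tgfbr3* (-1.89 ± 0.47) and the ligand *Gdf5* (-1.55 ± 0.39) fell. The fit without library PCC4 called 2 of these higher and 2 lower, without *Gli2* (adjusted *p* = 0.0870) and *Mfng* (adjusted *p* = 0.0561), and the fit with the cortex covariate called none.

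Matrix and epithelial genes held some of the largest changes in both directions. Of 18 tested matrix genes 6 rose and 4 fell (median 0.19, 55.6% called against 46.2% of all tested genes). *Sparcl1*, a secreted matricellular protein, was at 54.6, 55.1, 48.5, 54.2 and 50.6 CPM in HYP and 710.1, 438, 649.8, 1966 and 272 CPM in PCC, and *Tnc*, the matrix glycoprotein tenascin C, at 5.83, 10.3, 13.8, 7.35 and 6.88 CPM and 149, 39.2, 115, 240.4 and 48.1 CPM. The HYP libraries differed little among themselves for *Sparcl1*, whereas PCC spanned a wide range with library PCC4 on top. *Col2a1*, a cartilage collagen, rose by 2.74 ± 0.48. *Spp1*, the protease *Adamts9* (-2.20 ± 0.56) and the basement membrane protein *Nid1* (-1.61 ± 0.39) fell. Of 4 fibroblast markers *Fbln1* was called higher (1.25) and the other 3 were fitted below 0. Of 8 tested keratins and epithelial adhesion genes *Krt18* and the desmosomal cadherin *Dsg2* (3.80 ± 0.56) rose and *Muc4* and desmoplakin (*Dsp*, -2.25 ± 0.54) fell. The share called (50%) was close to that of all tested genes. In WT *Dsp* was higher still (543 ± 91.9 CPM, against 214 ± 96.6 CPM in HYP and 44.8 ± 30.6 CPM in PCC; SD, n = 5). Without library PCC4 the counts were 5 and 4 in the matrix group and 2 and 2 in the epithelial group. With the cortex covariate *Sparcl1* (2.78) and *Tnc* (3.15) were called and no epithelial gene was.

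Genes induced by interferon showed the clearest joint fall. Of 18 tested members 15 (83.3%) fell and none rose, against 17.8% of all tested genes, with a median of -1.26. *Oasl*, an antiviral protein of the oligoadenylate synthetase family, was at 129, 74.0, 67.6, 171 and 87.4 CPM in HYP and 9.32, 9.05, 14.2, 3.77 and 12.5 CPM in PCC (-3.44 ± 0.38, adjusted *p* = 0.00158). *Ifit3*, which binds viral RNA, was at 39.7, 47.1, 17.0, 62.0 and 33.2 CPM and 2.64, 5.47, 6.81, 2.91 and 5.45 CPM, and the chemokine *Cxcl10* at 44.3, 41.8, 17.1, 34.6 and 23.9 CPM and 7.77, 2.46, 6.17, 1.71 and 11.8 CPM. For all 3 the groups did not overlap, and the WT means (111, 37.3 and 48.1 CPM) stood beside HYP means of 106, 39.8 and 32.4 CPM. *Bst2*, the antiviral protein tetherin, was at 611 ± 53.7, 269 ± 71.3 and 78.7 ± 62.9 CPM in WT, HYP and PCC. Without library PCC4, 13 members were called, and 3 with the cortex covariate (median -0.81). Some of these genes belong to families of near-identical copies, such as *Gbp2*, *Gbp4* and *Gbp5*, between which reads may be divided. The 1 tested macrophage marker and the 2 lymphocyte markers were fitted below 0 and not called, with summed levels of 13.5 to 22.2 and 3.43 to 4.82 CPM in HYP and 6.73 to 16.1 and 1.00 to 2.71 CPM in PCC. Their part was not tested. The table held 1 erythroid marker, *Hbb-b1* (log2 fold change -2.26, not called), and no marker of mast cells or adipocytes.

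The interferon-stimulated response element (ISRE, here a pair of GAAA words 2 bases apart on either strand), bound by interferon regulatory factors, was found in the 300-base promoters of 10 of the 13 interferon genes that fell and had a single RefSeq promoter (76.9%), and in 3.92% of all promoters. *Oasl* was among the 3 without a match. The 250 bases before the start are shown for the 3 genes with the largest fall that hold the element, with the match in capitals. They are *Ifit3* (chr1:241527076-241527325, plus strand), *Cxcl10* (chr14:15988816-15989065, plus strand) and the guanylate-binding protein *Gbp4* (chr2:233978236-233978485, plus strand; log2 fold change -1.97).
Ifit3: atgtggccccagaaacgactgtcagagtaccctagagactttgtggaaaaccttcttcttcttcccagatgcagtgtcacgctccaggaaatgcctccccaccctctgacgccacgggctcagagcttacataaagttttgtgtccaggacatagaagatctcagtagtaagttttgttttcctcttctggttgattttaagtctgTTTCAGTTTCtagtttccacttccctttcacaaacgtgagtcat
Cxcl10: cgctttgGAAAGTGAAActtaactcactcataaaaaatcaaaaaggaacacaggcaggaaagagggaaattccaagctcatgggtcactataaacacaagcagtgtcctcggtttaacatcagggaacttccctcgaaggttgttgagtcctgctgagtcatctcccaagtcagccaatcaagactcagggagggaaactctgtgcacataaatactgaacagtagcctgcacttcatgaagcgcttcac
Gbp4: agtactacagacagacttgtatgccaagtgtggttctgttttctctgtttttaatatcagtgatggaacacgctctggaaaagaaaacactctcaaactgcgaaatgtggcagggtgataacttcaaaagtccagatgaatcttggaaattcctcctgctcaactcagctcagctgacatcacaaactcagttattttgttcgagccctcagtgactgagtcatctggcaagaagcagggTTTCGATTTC

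The element lies close to the start in *Ifit3* and *Gbp4* and at the far end of the window in *Cxcl10*.

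**Figure D4:**
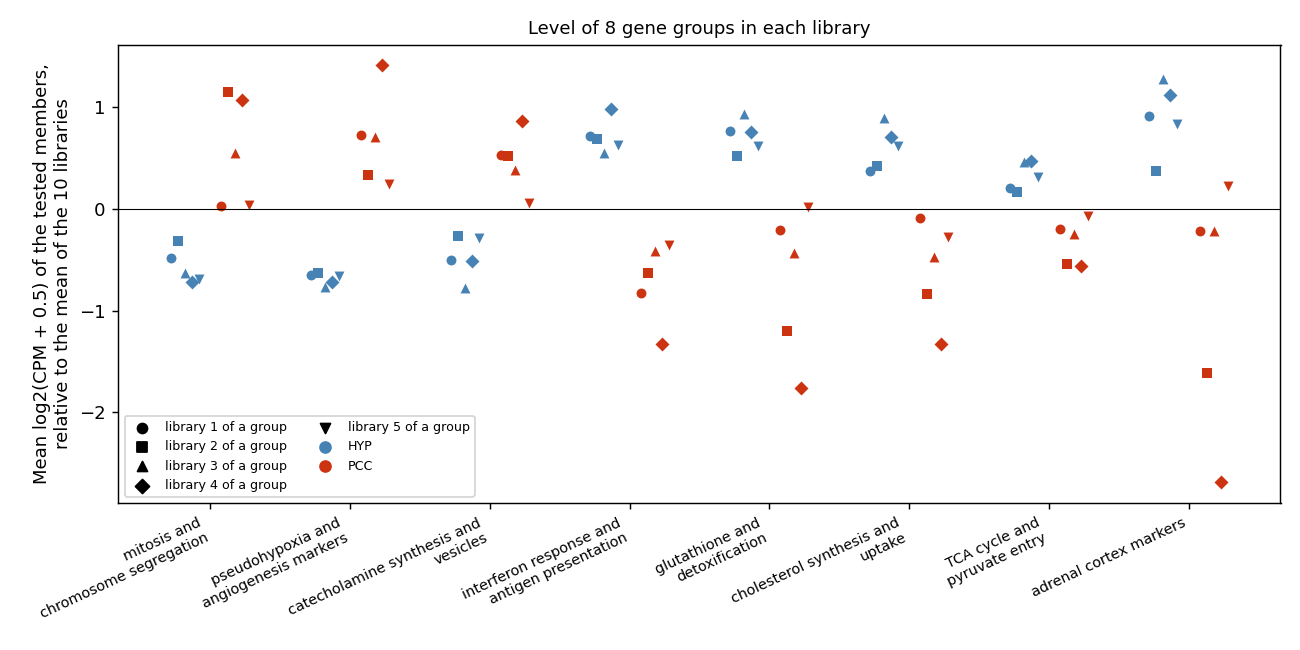
Level of 8 gene groups in each library, as the mean log2(CPM + 0.5) of the tested members relative to the mean of the 10 libraries. Blue symbols are HYP, red symbols PCC, and the symbol's shape gives the library number. HYP libraries run from -0.768 to -0.628 in the pseudohypoxia group, while the PCC libraries run from -2.69 to 0.225 for the cortex markers.

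Enzymes of the TCA cycle and of branched-chain amino acid breakdown that passed the test were, with 1 exception, lower in PCC. Of 14 tested genes of the TCA cycle and pyruvate entry 7 fell and 1 rose (median -0.71, 57.1% called against 46.2% of all tested genes). The mitochondrial malic enzyme *Me3* was at 16.5, 22.5, 33.8, 43.3 and 31.2 CPM in HYP and 4.52, 5.22, 7.70, 1.41 and 7.17 CPM in PCC (-2.50 ± 0.41, adjusted *p* = 0.00632). The NADP-dependent isocitrate dehydrogenase *Idh1* was at 125, 179, 171, 197 and 192 CPM and 107, 56.0, 60.8, 51.0 and 67.3 CPM (-1.34 ± 0.23, adjusted *p* = 0.00675), and *Suclg2*, a subunit of succinyl-CoA ligase, fell (-0.95 ± 0.27). *Sdha*, the catalytic subunit of succinate dehydrogenase, also fell (-0.85 ± 0.24). *Pck2*, the mitochondrial carboxykinase that draws on the cycle, rose (0.93 ± 0.22). Branched-chain amino acid degradation had 4 falls (25%, against 17.8% of all tested genes) and no rise among 16 tested genes (median -0.67). Those 4 were *Hibadh* (-1.01 ± 0.28), *Mcee* (34.3 ± 7.01 to 17.1 ± 3.58 CPM, SD), *Pccb* (-0.97 ± 0.24) and *Auh* (-0.82 ± 0.20). Of 5 respiratory chain genes in the table, not counting *Sdha*, *Cox4i2* rose. The other 4 were fitted below 0 but not called (median of the 5 genes -0.62).

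Glycolysis and lactate genes gave 4 rises (36.4%, against 28.4% of all tested genes) and no fall among 11 tested (median 1.24). The phosphofructokinase *Pfkp* was at 244, 200.2, 283, 254 and 238 CPM in HYP and 709, 429, 585, 1239 and 354 CPM in PCC (1.44 ± 0.32), the lactate transporter *Slc16a1* rose by 0.97 ± 0.22, and *Fbp1*, an enzyme of gluconeogenesis that opposes glycolysis, rose by 2.41 ± 0.51 with 1 PCC library inside the HYP range. In fatty acid oxidation and peroxisomes 2 of 14 genes rose (*Abcd2*, 0.96 ± 0.23, and *Cpt1c*, 0.79 ± 0.22) and 2 fell (*Phyh*, -1.56 ± 0.36, and catalase, *Cat*, -1.12 ± 0.22), with a median of -1.02. Their share called (28.6%) was below that of all tested genes (46.2%). In the urea cycle and amino acid synthesis 4 of 14 rose and 5 fell (median -1.06, 64.3% called against 46.2% of all tested genes). The asparagine synthetase *Asns* was at 29.1, 29.1, 26.0, 25.3 and 24.7 CPM and 74.8, 62.8, 56.6, 89.3 and 39.5 CPM (1.27 ± 0.21), and the folate enzymes *Mthfd1l* (1.16 ± 0.19) and *Shmt2* (0.98 ± 0.27) rose. *Ass1*, the alanine transaminase *Gpt2* (-1.61 ± 0.42) and the glutaminase *Gls2* (-1.12 ± 0.28) fell. Without library PCC4 the calls lower in PCC numbered 4 for the TCA cycle, 3 for branched-chain amino acids, 3 for fatty acids and 5 for the urea cycle group, and 5 glycolysis genes were higher. With the cortex covariate no gene of the TCA, branched-chain, glycolysis, fatty acid or urea cycle groups was called.

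Cholesterol and detoxification genes had the lowest medians. Of 12 tested genes of cholesterol synthesis and uptake 7 fell and 1 rose (66.7% called against 46.2% of all tested genes), and the median was -1.37. *Idi1*, an enzyme of isoprenoid synthesis, was at 86.1, 102, 244, 99.0 and 90.1 CPM in HYP and 57.4, 31.9, 30.5, 19.2 and 30.5 CPM in PCC, with library HYP3 well above the rest. *Dhcr7*, the last step of cholesterol synthesis, was at 376, 217, 582, 532 and 408 CPM and 155, 74.4, 167, 26.6 and 172 CPM. *Abcg1*, a cholesterol exporter, rose by 0.60 ± 0.17. None of the 5 fallen genes with a single RefSeq promoter held a sterol regulatory element spelled TCACNCCAC, which 1.12% of all promoters hold. Among 22 tested genes of glutathione and detoxification 10 fell and 1 rose (median -1.35), and the share called (50%) was close to that of all tested genes. Beside *Fmo1*, a monooxygenase of drug metabolism, the carbonyl reductase *Cbr1* (-1.85 ± 0.34) and the microsomal glutathione transferase *Mgst1* (-1.74 ± 0.47) fell, and haem oxygenase, *Hmox1*, rose (1.65 ± 0.45) with overlapping groups.

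The cortex makes steroids from cholesterol, and its markers were lower in PCC as these groups were. In the PCC libraries the cholesterol group ran from -1.33 in PCC4 to -0.0909 in PCC1 and the cortex markers from -2.69 in PCC4 to 0.225 in PCC5, on the relative log2 scale of the plot of group levels. In PCC5 the cholesterol group was at -0.28, and in PCC1 the cortex markers were at -0.218. The part of the cortex in these groups was not tested. Without library PCC4, 7 cholesterol and 9 detoxification genes were lower and none higher. With the cortex level as a covariate no cholesterol gene and 1 detoxification gene (*Fmo1*) were called, with medians of -0.60 and -0.41. *Star*, the cholesterol carrier that starts steroid synthesis and a defining cortex marker, was at 4736 ± 1775 CPM in HYP and 1620 ± 1118 CPM in PCC (SD, n = 5; adjusted *p* = 0.146).

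Of 14 tested immediate early, clock and stress genes 4 rose and 4 fell (median -0.17, 57.1% called against 46.2% of all tested genes). The rises included the clock-related genes *Ciart* (2.22 ± 0.50), *Tef* (1.31 ± 0.23) and *Per2* (1.26 ± 0.24), and *Per2* was at 49.1, 38.9, 52.2, 44.7 and 37.9 CPM in HYP and 115, 139.5, 143, 74.0 and 62.8 CPM in PCC. The falls included the small heat shock protein *Hspb1* (-1.46 ± 0.28), the AP-1 factor *Jun* (-1.32 ± 0.33) and *Maff*, a small MAF factor (18.9 ± 4.50 to 9.40 ± 2.33 CPM, SD, n = 5). Both counts were the same without library PCC4, and no gene of the group was called with the cortex covariate. The hour of dissection is not given in the sources used here. Of the 16 tested genes that the study chose from the literature for a qRT-PCR array, 7 rose and 2 fell (median 0.75, 56.2% called), 6 and 2 without library PCC4. *Ret*, *Slc18a2* and *Trib2* were the 3 called with the cortex covariate. *Trib2*, a pseudokinase, was at 9.31, 9.57, 9.43, 11.2 and 11.5 CPM in HYP and 34.1, 27.9, 31.8, 44.0 and 20.1 CPM in PCC (1.63 ± 0.22, adjusted *p* = 0.00230), *Spry4*, a feedback inhibitor of receptor kinases, rose by 0.91 ± 0.21, and the phosphodiesterase *Pde1a* fell (-2.04 ± 0.45). *Igsf10* (-0.60 ± 0.20), *Cacna2d3* (-1.04 ± 0.32), *Ntng2* (-0.93 ± 0.32), *Mab21l2* (0.52 ± 0.19) and *Ifitm2* (0.60 ± 0.17) missed the threshold.

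The levels in WT medulla, which came from rats of the age of the PCC group, lay on the far side of HYP from PCC for several of the leading genes. *Tac3* averaged 1.12, 9.68 and 448 CPM in WT, HYP and PCC, *Ret* 6.97, 15.4 and 186 CPM, *Epas1* 373, 1516 and 4477 CPM, *Kif2c* 1.64, 8.40 and 37.7 CPM, and *Cox4i2* 6.64, 28.7 and 403 CPM. The same order held downwards for *Ass1* (759.7, 117 and 8.90 CPM) and *Slc25a30* (1333, 505 and 40.7 CPM). *Fmo1* (27.6, 26.2 and 2.26 CPM) and *Oasl* were at like means in WT and HYP and lower in PCC, and *Spp1* averaged 681 CPM in WT, below its HYP mean of 1184. WT values varied widely for some genes, such as *Muc4* (176, 167, 33.6, 43.2 and 1.20 CPM) and *Ass1* (701, 786, 767, 1532 and 12.2 CPM). These means share libraries with the comparison above and are given without a test.

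**Figure D5:**
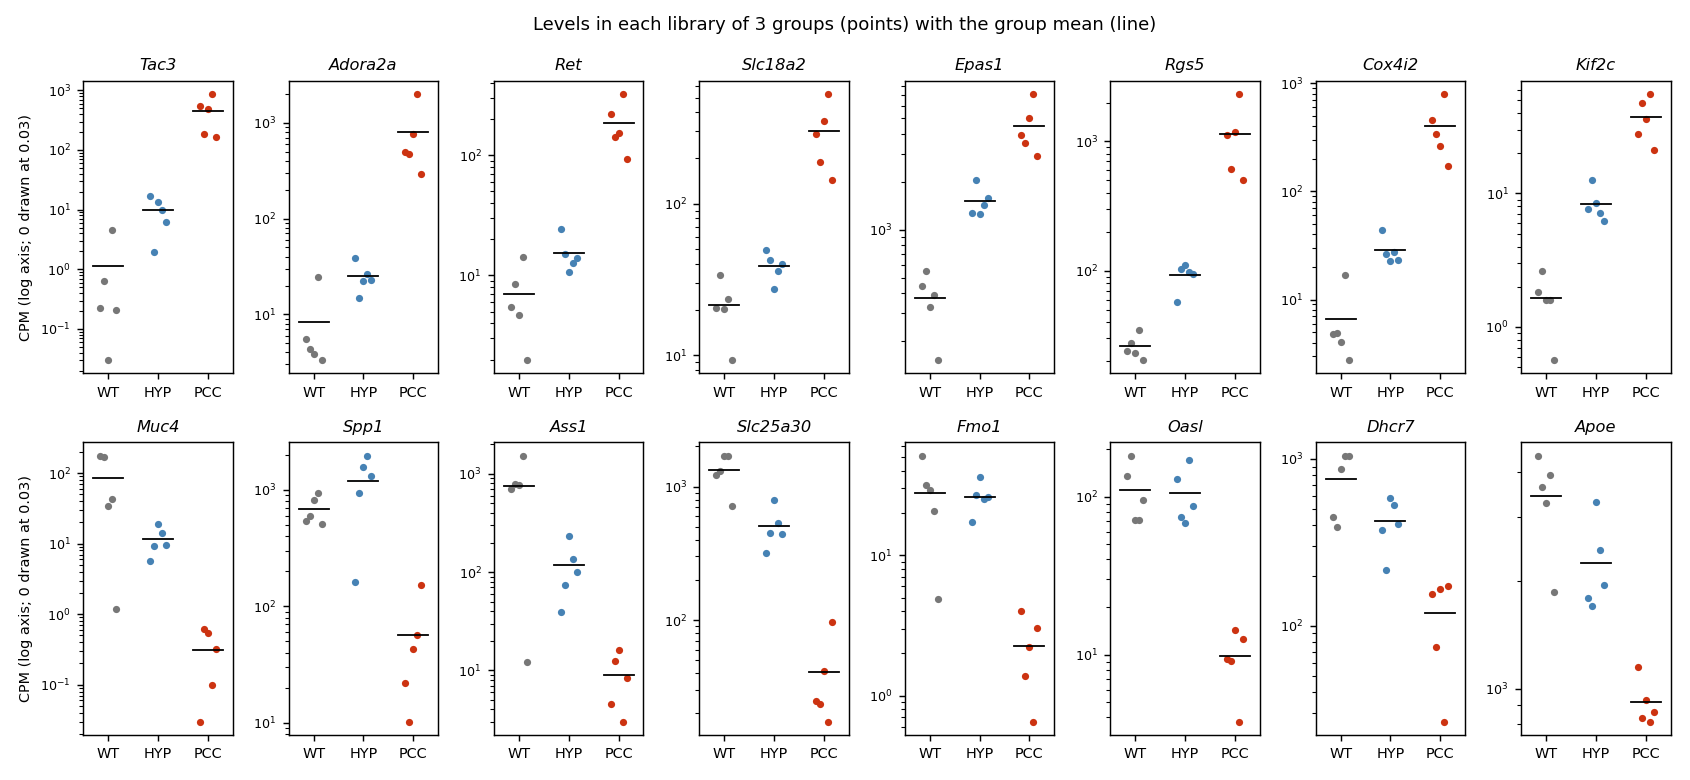
Level of 16 genes in each WT (grey), HYP (blue) and PCC (red) library, in CPM on log axes with 0 drawn at 0.03, and the mean of each group of 5 as a line. The upper row holds genes that rose from HYP to PCC and the lower row genes that fell, and no PCC point overlaps a HYP point in any of the 16 panels. The genes were picked from the named genes, and for several of them the choice required this. Among all tested genes the groups did not overlap for 54.2%.

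Beside protein-coding genes the table held 20 microRNA loci, of which 10 were tested and 4 were called, all higher in PCC. Among all tested genes 28.4% were called higher. Of these, *Mir23b* (chr17:823222-823318), *Mir27b* (chr17:823461-823557) and *Mir3074* (chr17:823940-824056) lie within 1 kb on chromosome 17 of Rn06 and were noted after their values were seen. *Mir23b* was at 0.335, 0.287, 0.264, 0.306 and 1.05 CPM in HYP and 1.18, 2.71, 0.987, 4.02 and 2.41 CPM in PCC (2.29 ± 0.53, adjusted *p* = 0.0239), *Mir27b* at 0.804, 0.229, 0.857, 0.796 and 0.892 CPM and 1.93, 4.14, 2.07, 5.27 and 3.50 CPM (2.23 ± 0.42, adjusted *p* = 0.0110), and *Mir3074* rose by 1.05 ± 0.22. Mature microRNAs are too short for these libraries, so that the reads come from longer transcripts over the loci, without strand. The mature sequences that the loci encode are given from RefSeq (GRCr8) with the seed, bases 2 to 8, in capitals.
rno-miR-23b-3p: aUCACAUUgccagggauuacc
rno-miR-27b-3p: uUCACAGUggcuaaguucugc
rno-miR-3074: gAUAUCAGcucaguaggcaccg

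The 3 seeds differ. The level of the mature microRNAs was not measured here.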

How the data were processed

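The members, gene groups and tests were chosen with earlier results of these data known. The study aligned reads to the rat genome Rn06 with HISAT2 2.0.5, counted them per gene with featureCounts 1.5.0-p3 (names from the submitters' processing notes) and tested them with DESeq2. The deposited tables give raw counts per gene, the authors' signal normalised by size factors, the authors' FPKM, and the authors' fold changes and p-values; the fold changes were not used. Each table lists genes with an adjusted p-value under 0.05 in its comparison (largest 0.04999 here); the authors' p-values served only to recover the number of genes tested (17454). Reads were counted without strand as far as the library kit shows, so overlapping or near-identical genes may share reads.

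CPM was computed as count over effective library size, set from the authors' size factors, because scaling over preselected genes would centre the changes. The quasi-likelihood test of edgeR 4.0.16 (R 4.3.3) compared 5 PCC with 5 HYP libraries after filterByExpr, two-sided, with Benjamini-Hochberg adjustment over 17454 genes, which gives upper bounds. SE was the absolute log2 fold change over the root of F. A test on simulated counts of 3144 genes called 94 of 100 genes changed 4-fold, 43 of 100 changed 2-fold and 10 of 2944 unchanged. The rate of calls under adjustment over 17454 genes was not tested. Named genes were the 12 largest changes in each direction (called, mean of at least 1 CPM, no overlap, full symbol), the 6 largest FPKM differences, up to 3 called members per group and direction, the array genes and *Cdkn1b*. The floor was 3 counts per library. Libraries are from 5 animals per group by the study's methods. Promoters, motifs and microRNAs came from RefSeq tables (GRCr8), matched by symbol. Alternatives were other scalings, DESeq2 1.42.0, other filters, each library left out, a replicate block and the cortex covariate. Results for a few genes are not reported here.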

Additional observations from a re-analysis of the deposited data

Results flagged for a closer look

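Of 270 groups of 5 libraries examined for the named genes, 35 held a library whose gap to the next, divided by the range of the group, exceeded Dixon's critical value for 5 samples. For independent, normally distributed values that limit flags about 1 in 20. The groups here share the same libraries and most of the genes were chosen for their changes, so this rate measures no excess. Of the 35 flags, 19 were in library PCC4, which was the highest of its group in each. Its levels in CPM, each with the next highest PCC library, were *Slc12a1* (11.3, next 2.86), *Tph1* (87.2, next 9.82), *Krt18* (15.3, next 4.8), *Adora2a* (1993, next 759), *Stc2* (23.8, next 5.11), *Myo1a* (80.0, next 23), *Myh3* (89.4, next 21), *Ndufa4l2* (1620, next 787) and *E2f1* (55.9, next 17.2). The others in that library were *Pgf* (162, next 47), *Slc16a1* (163, next 99.1), *Shmt2* (276, next 129), *Hmox1* (293, next 115), *Sparcl1* (1966, next 710), *Kcnj3* (14.4, next 4.47), *Adrb1* (13.2, next 3.55), *Notum* (77.5, next 15.5), *Mfng* (176, next 70.1) and *Vegfa* (3073, next 1029). This library had the lowest cortex level of the 10 (6.31 mean log2 CPM) and lay farthest out on the first principal component (73.7). Without it the called genes among these kept their direction, but *Hmox1* (adjusted *p* = 0.0761) and *Mfng* (adjusted *p* = 0.0561) lost the call. The log2 fold change moved by over 1.5 times on the fold scale for *Slc12a1* (5.565 to 4.555, with HYP at the floor), *Tph1* (5.55 to 3.58), *Krt18* (5.31 to 4.31), *Adora2a* (5.00 to 4.33), *Stc2* (4.75 to 3.40), *Myo1a* (4.67 to 3.62), *Myh3* (4.62 to 3.45), *E2f1* (2.23 to 1.51), *Pgf* (3.93 to 3.15), *Sparcl1* (3.94 to 3.30), *Kcnj3* (4.34 to 3.21), *Adrb1* (2.78 to 1.78) and *Notum* (4.58 to 3.32).

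In the other PCC libraries the values that stood apart were 0.635 CPM for *Col6a5* in PCC5 (next 0.153), 52.6 CPM for *Hamp* in PCC1 (next 12.4), 48.5 CPM for *Pomc* in PCC2 (next 15.2), 1.09 CPM for *Dscaml1* in PCC5 (next 0.511) and 26.9 CPM for *Htr3a* in PCC2 (next 9.58). In HYP, library HYP1 stood apart for *Cox4i2* (43.7, next 27.3), *Hmox1* (88.8, next 37.2) and *Epha8* (3.55, next 2.64), library HYP2 stood apart for *Notum* (2.58, next 0.804), library HYP3 stood apart for *Dlec1* (0.0659, next 0.682), *Myh3* (2.18, next 1), *Olah* (28, next 12.3), *Meis1* (239, next 139) and *Idi1* (244, next 102), and library HYP5 stood apart for *Tfdp1* (65.4, next 54.7) and *Cacna2d3* (7.82, next 4.96). All HYP values were the highest of their group except that of *Dlec1*, which was the lowest.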

How the results depend on the processing

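The counts of called genes depended on scaling and on single libraries, while directions rarely did. Scaling over the listed genes moved the median of all genes by -0.14 (TMM) and -0.28 (DESeq2 size factors) on the log2 scale, and scaling by library totals by 0.11. The share of higher calls was 45.3%, 34.1% and 70.8% against 61.4%, and the size factors gave 521 higher and 1006 lower. The DESeq2 test called 1554 higher and 1161 lower, adjustment over the listed genes alone 1748 and 1401, and the cortex covariate, chosen after the data were seen, 72 and 11. Leaving out 1 library gave 339 to 1138 genes higher and 139 to 847 lower. Counts moved by over 1.5 times without library HYP2 (564 and 310), HYP3 (352 and 150), HYP4 (339 and 139), HYP5 (505 and 257), PCC2 (540 and 218), PCC3 (555 and 298) or, for the lower genes, PCC5 (847). Same-numbered libraries of the groups did not deviate together (correlations of -0.179 to 0.194), so the numbers do not pair them, and a fit with the replicate number as a block called 278 higher and 161 lower.

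Of 135 named genes none changed direction under any alternative, 101 of the 128 called lost the call under at least 1 and 65 in at least 1 fit without a library. Of 546 medians of gene groups under alternatives 3 changed sign. The matrix group was at -0.0971 with DESeq2 size factors and -0.649 without a filter, and the TGF-beta, BMP, Notch and hedgehog group at 0.128 with the cortex covariate. The causes were not tested. Genes at a few counts per library, such as *Slc12a1* and *Krt18*, are limited by depth.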

Other observations

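Called genes were spread over all 20 autosomes and X. The share of tested genes called higher was largest on chromosome 3 (86 of 234, 36.8%) and smallest on chromosome 19 (13 of 64, 20.3%), against 28.4% of all tested genes. The share called lower ran from 11.3% on chromosome 9 to 24.7% on chromosome 15, against 17.8%. Whether chromosomes differ was not tested. Among non-coding classes, 9 of 38 tested long intergenic RNAs rose and 7 fell, 10 of 23 pseudogenes rose and 3 fell, and 2 of 6 small nucleolar RNAs rose and 1 fell. These counts stand beside the same 28.4% higher and 17.8% lower of all tested genes.

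Of the 97 genes called with a change of at least 8-fold, 3 pairs lay within 100000 bases of each other on Rn06, and 2 of them, chosen after the values were seen, are given. *Myo1a*, an intestinal brush border myosin (chr7:71004417-71019372, plus strand), ends 4603 bases before *Tac3* on the same strand, and both rose (log2 fold changes 4.67 and 5.54). *Dmp1* and *Sparcl1*, genes of a cluster of secreted matrix proteins on chromosome 14, are 93456 bases apart and rose by 4.52 and 3.94. *Spp1*, which lies on the same chromosome at 6673686 to 6679901, fell by 4.38. Whether reads run from *Myo1a* into *Tac3* or the reverse was not tested.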
